A study of Mus musculus with 8 samples.

Results

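The Elavl and Musashi genes encode RNA-binding proteins, and their mRNA was measured here in enteric neural crest-derived cells (ENCDCs), the cells that build the enteric nervous system, and in the other cells of the fetal bowel. The 6 genes (*Elavl1*, *Elavl2*, *Elavl3*, *Elavl4*, *Msi1* and *Msi2*) were chosen by name, as the rows of the mRNA count table that carry these symbols, and make up 6 of its 29092 genes. GFP+ ENCDCs and GFP- gut cells were separated by fluorescence-activated sorting of dissociated bowel, stomach to anus, from E13.5 *Ednrb-EGFP* mouse embryos, in which EGFP is produced under control of the endothelin receptor gene *Ednrb*. Both populations came from bowels seen to be GFP+, from matings of heterozygous *Ednrb-EGFP* with wild-type C57BL/6J mice, and the labels give their genotype as wild type, so the gut cells are the unlabelled cells of reporter embryos. There were 4 ENCDC and 4 gut libraries of 750 pg of RNA each, and RNA from several samples was pooled where needed, so p-values measure the spread between these libraries. Deposited totals were 13250893 to 13264785 counts in ENCDC libraries and 13257119 to 13267220 in gut libraries.

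Elavl proteins, also called Hu proteins, carry RNA recognition motifs that bind U-rich and AU-rich stretches, largely in 3' UTRs, and are known for stabilizing mRNA and for effects on translation and splicing. *Elavl1* (HuR) is made in nearly every cell type, whereas *Elavl2* (HuB), *Elavl3* (HuC) and *Elavl4* (HuD) are largely neuronal, and antibodies against HuC and HuD are a standard stain for enteric neuron cell bodies. Musashi proteins bind short UAG-containing motifs and are best known as regulators of translation, with *Msi1* a marker of neural progenitors and of epithelial stem cells of the intestine and *Msi2* made more widely, in blood progenitors among others.

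The sort was checked with markers, whose lists were chosen with earlier results of these data known. All 15 crest and neuron markers were higher in ENCDCs, and their summed normalized count (scaled with TMM factors) ran from 93002 to 112232 in ENCDC libraries and from 3331 to 3811 in gut libraries. Much of the gut sum was *Ednrb*, whose reporter was sorted on (38735 ± 3246 in ENCDC and 2513 ± 122 in gut libraries, SD, n = 4 per group). Without *Ednrb*, a choice made after seeing the data, the sum ran from 57333 to 70509 in ENCDC libraries and from 915 to 1128 in gut libraries. All 20 markers of other bowel cells were lower in ENCDCs. Their sum in ENCDC libraries 1 to 4 was 9856, 5143, 25778 and 5484, against 203399 to 247763 in gut libraries. ENCDC replicate 3 had the highest sum and the highest value for 13 of the 20 markers among ENCDC libraries, collagen and smooth muscle genes among them, but the lowest for 4 (*Epcam*, *Pecam1*, *Upk3b* and *Csf1r*). It also stood apart on the second principal component (13.0% of variance). The leukocyte marker *Ptprc* was at 0 in ENCDC libraries 1 to 3, and the crest marker *Tfap2b* was at 0 in ENCDC replicate 3 and in every gut library. The part of these markers in the values below was not tested, and each count of calls that leads a comparison is also given without this library.

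All 6 genes are protein-coding. In mm10 with GENCODE M21 annotation, *Elavl1* lies at chr8:4285382-4325413, *Elavl2* at chr4:91250763-91400785, *Elavl3* at chr9:22015005-22052023, *Elavl4* at chr4:110203722-110351909 and *Msi2* at chr11:88339382-88718513, all on the minus strand. *Msi1* lies at chr5:115429599-115455698 on the plus strand. The longest annotated coding sequences hold 326 codons in *Elavl1*, 389 in *Elavl2*, 367 in *Elavl3*, 385 in *Elavl4*, 362 in *Msi1* and 346 in *Msi2*. Exons of *Elavl1* share 204 bases (1.97% of its exon length) with *Ccl25* on the other strand, and the libraries do not keep the strand. *Ccl25* had 199 to 268 counts in ENCDC libraries and 144 to 334 in gut libraries. Exons of *Elavl3* share 256 bases (3.72%) with *Gm49318* on the same strand, a gene without a row in the count table.

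The study set out to find miRNAs that could act in the developing enteric nervous system, and listed predicted targets, among genes present in these ENCDC samples, of miR-137, miR-9, miR-488, miR-27b and miR-124. Each of the 6 genes stood on at least 1 of the 5 lists, in 11 pairs of gene and miRNA. *Elavl1*, *Elavl2* and *Elavl4* were on the miR-9 list, *Elavl2*, *Msi1* and *Msi2* on the miR-27b list, *Elavl3*, *Msi1* and *Msi2* on the miR-137 list, *Elavl2* on the miR-488 list and *Elavl1* on the miR-124 list. No list held all Elavl genes, whereas *Msi1* and *Msi2* were on the same lists. In a further analysis of miR-137 with ENCDC data alone, the paper named *Msi1*, but not *Msi2*, among its genes of interest. No biological process was significant there, and the paper judged such paired data insufficient to find affected processes. The mature miRNAs searched are shown 5' to 3' from RefSeq (GRCm38.p6) with the seed, bases 2 to 8, in capitals, since the sites below are read from it.
mmu-miR-9-5p: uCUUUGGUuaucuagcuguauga
mmu-miR-27b-3p: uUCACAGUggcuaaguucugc
mmu-miR-137-3p: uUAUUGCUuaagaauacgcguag
mmu-miR-488-3p: uUGAAAGGcuguuucuugguc

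The longest GENCODE M21 3' UTR of each gene was searched on the transcript strand for the 7 letters opposite bases 2 to 8 of a seed, and for those opposite bases 2 to 7 followed by A, which may overlap. The letters were ACCAAAG and CCAAAGA for miR-9, ACTGTGA and CTGTGAA for miR-27b, AGCAATA and GCAATAA for miR-137, and CCTTTCA and CTTTCAA for miR-488. All 10 listed pairs with a sequence had a match, which the predictions used as input, and 2 of the 14 unlisted pairs had one (*Elavl3* for miR-27b and *Msi2* for miR-488). A site is shown for each listed pair, in the sense of the mRNA and with the matching letters in capitals, so that its letters can be compared with the seed. The lists give no positions, so these are matches found in the longest 3' UTR and need not be the sites behind a listing.
Elavl1 and miR-9, chr8:4288861-4288882: accaatgagaacggACCAAAGa
Elavl2 and miR-9, chr4:91252589-91252610: taaagcagtaccttgCCAAAGA
Elavl4 and miR-9, chr4:110205648-110205669: acattaacattgttgCCAAAGA
Elavl2 and miR-27b, chr4:91251234-91251255: agtacagtacatatACTGTGAg
Msi1 and miR-27b, chr5:115454468-115454489: tatcatatgtaaatACTGTGAg
Msi2 and miR-27b, chr11:88343040-88343061: ataaacatcactgcACTGTGAc
Elavl3 and miR-137, chr9:22015540-22015561: gcaggaggcatccgAGCAATAa
Msi1 and miR-137, chr5:115455241-115455262: ccccaagaactcaaAGCAATAa
Msi2 and miR-137, chr11:88340620-88340641: atcttcaagaataaAGCAATAt
Elavl2 and miR-488, chr4:91251927-91251948: cttgtgtttatgaaCCTTTCAg

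The *Elavl1* UTR held 3 ACCAAAG matches, and each of the other listed pairs had 1 site or, for *Msi2* and miR-137, 2. Such letters are common by length alone. Among other 3' UTRs within 20% of the length, ACCAAAG stood in 32.9% of those like *Elavl1*, CCAAAGA in 22.8% of those like *Elavl2* and 24.0% of those like *Elavl4*, and AGCAATA in 23.3% of those like *Elavl3*, 12.2% of those like *Msi1* and 32.4% of those like *Msi2*. ACTGTGA stood in 25.9%, 21.7% and 45.2% of UTRs like those of *Elavl2*, *Msi1* and *Msi2*, and CCTTTCA in 23.4% of those like *Elavl2*. A match is a description of these letters and not a measured site.

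All 6 genes had higher mRNA in ENCDCs than in gut cells, and none was lower. The size of the difference ran from about 75-fold for *Elavl4* and *Elavl3*, through 13.0-fold for *Elavl2* and 4.45-fold for *Msi1*, to 1.83-fold for *Msi2* and 1.24-fold for *Elavl1*. All 6 were among the 18866 genes tested, and all 6 passed in edgeR's quasi-likelihood test with Benjamini-Hochberg adjustment over all genes, at an adjusted p under 0.05. Over all genes tested, 37.9% were called in either direction, 17.0% higher in ENCDCs and 20.9% lower. No ENCDC library overlapped a gut library for any of the 6, against 38.2% of all genes without overlap in either direction and 16.9% with every ENCDC library above every gut library. Without ENCDC replicate 3 all 6 were still called higher, against 19.0% of all genes. The same held with voom and limma, the tools the study names, against 17.2%. The 6 genes were chosen with earlier results of these data known, so these shares describe them and do not test the choice. In sorted bulk samples, more cells making an mRNA and more mRNA per cell cannot be told apart.

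**Figure D1:**
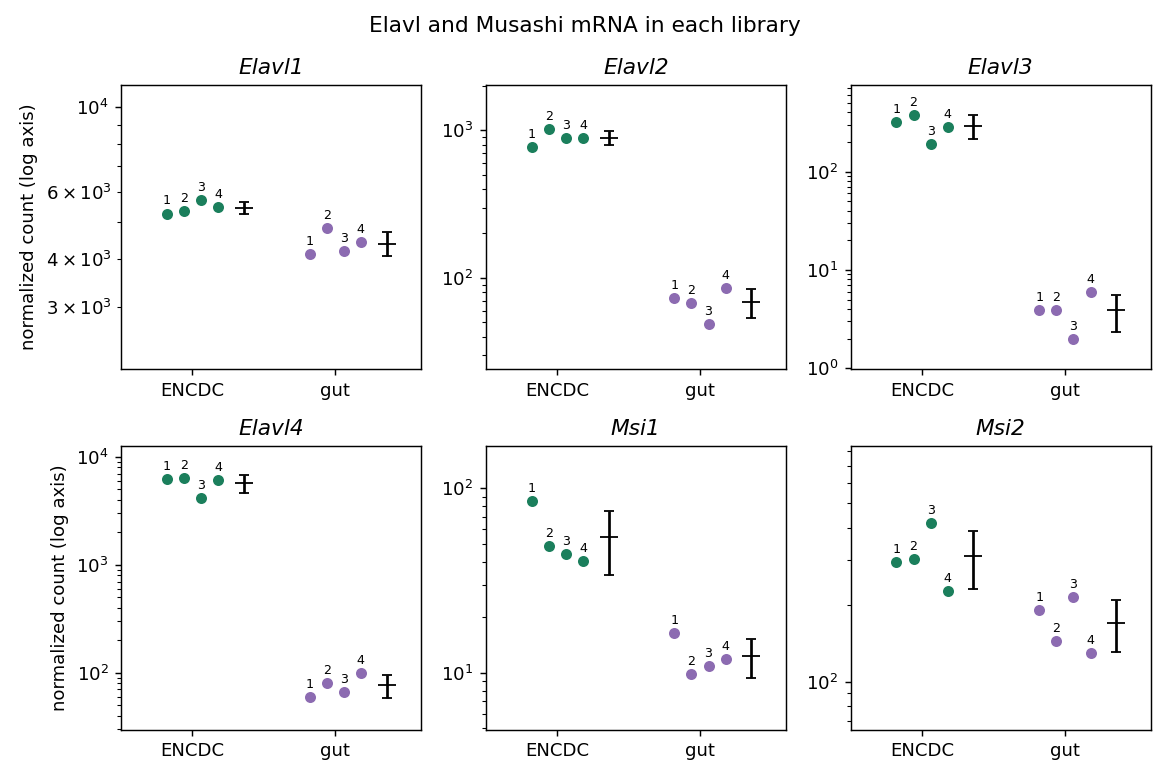
Normalized count of each gene (log axis, scaled separately for each gene) in the 4 ENCDC and 4 gut libraries, numbered by replicate, with the mean and SD as a black bar. All ENCDC points lie above all gut points for each gene; the gap is widest for *Elavl3* and *Elavl4* and narrowest for *Msi2* and *Elavl1*.

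*Elavl4*, whose protein HuD is used to stain enteric neurons, and *Elavl3* had the largest fold changes, and their order turned when gut replicate 1 was left out (log2 fold change 6.13 for *Elavl4* and 6.17 for *Elavl3*) or gut replicate 4 (6.39 and 6.43). The *Elavl4* normalized count was 6270, 6367, 4165 and 6151 in ENCDC libraries 1 to 4, against 59.3, 79.8, 66.1 and 99.99 in gut libraries 1 to 4. ENCDC replicate 3 was the lowest ENCDC library, and it was still far above every gut library. Means were 5738 ± 1052 in ENCDC libraries and 76.3 ± 18.0 in gut libraries (SD, n = 4 per group). The log2 fold change was 6.23 ± 0.21 (SE), with a 95% interval of 5.77 to 6.69 and an edgeR adjusted p of 5.48e-09.

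*Elavl3*, which encodes HuC, had a like fold change at a lower level per length. It had 317, 379, 192 and 285 normalized counts in ENCDC libraries 1 to 4, against 3.89, 3.94, 1.97 and 5.94 in gut libraries 1 to 4. ENCDC replicate 3 was again the lowest of its group. All 4 gut libraries together held 16 *Elavl3* counts, so the gut level rests on few reads and its fold change has the widest interval among the Elavl genes. The log2 fold change was 6.18 ± 0.39 (SE, 95% interval 5.31 to 7.04, edgeR adjusted p 5.13e-07). The coefficient of variation in ENCDCs was 26.7%, against 5.89% from counting alone.

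*Elavl2*, which encodes HuB, differed less than *Elavl3* and *Elavl4*. Its mean per kb of exon was below that of *Elavl4* in both populations. It was 107 against 1065 in ENCDCs and 8.25 against 14.2 in gut cells. It had 777, 1016, 888 and 884 normalized counts in ENCDC libraries 1 to 4, against 72.9, 67.9, 48.3 and 85.1 in gut libraries 1 to 4. Unlike *Elavl3* and *Elavl4*, it was not lowest in ENCDC replicate 3, where it stood between the other libraries. The log2 fold change was 3.70 ± 0.20 (SE, 95% interval 3.26 to 4.13, edgeR adjusted p 1.52e-07).

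*Elavl1*, the HuR gene of nearly all cells, was abundant in both populations. It had 5263, 5354, 5718 and 5480 normalized counts in ENCDC libraries 1 to 4, against 4120, 4810, 4196 and 4424 in gut libraries 1 to 4. The populations did not overlap, and the lowest ENCDC library was close to the highest gut library. The log2 fold change was 0.31 ± 0.08 (SE, 95% interval 0.14 to 0.49, edgeR adjusted p 0.00879), or 24.3% more in ENCDCs. *Elavl1* was called higher under TMM, RLE and no scaling factors, with log2 fold changes between 0.27 and 0.31, but it did not pass a test against a 2-fold change (edgeR adjusted p 1.00).

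*Msi1* was the least abundant of the 6 genes per length in ENCDCs. It had 85.3, 48.8, 44.2 and 40.3 normalized counts in ENCDC libraries 1 to 4, against 16.5, 9.85, 10.9 and 11.9 in gut libraries 1 to 4. ENCDC replicate 1 was high, and the other 3 ENCDC libraries were close together and above every gut library. The log2 fold change was 2.14 ± 0.49 (SE, 95% interval 1.07 to 3.21, edgeR adjusted p 0.00501). The gut value rests on 50 counts over 4 libraries, and its coefficient of variation of 24.0% was no larger than the 28.3% that counting alone would give.

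*Msi2* had the highest adjusted p of the 6. It had 293, 301, 420 and 227 normalized counts in ENCDC libraries 1 to 4, against 191, 144, 214 and 130 in gut libraries 1 to 4. The lowest ENCDC library and the highest gut library nearly met, and the highest value was in ENCDC replicate 3, the library with the highest sum of markers of other bowel cells. The log2 fold change was 0.87 ± 0.25 (SE, 95% interval 0.33 to 1.41, edgeR adjusted p 0.0170). Without gut replicate 2 the call was lost (log2 fold change 0.77, edgeR adjusted p 0.0596), and it did not pass a test against a 2-fold change (edgeR adjusted p 1.00). Without ENCDC replicate 3 the log2 fold change was 0.69 (edgeR adjusted p 0.0320).

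**Figure D2:**
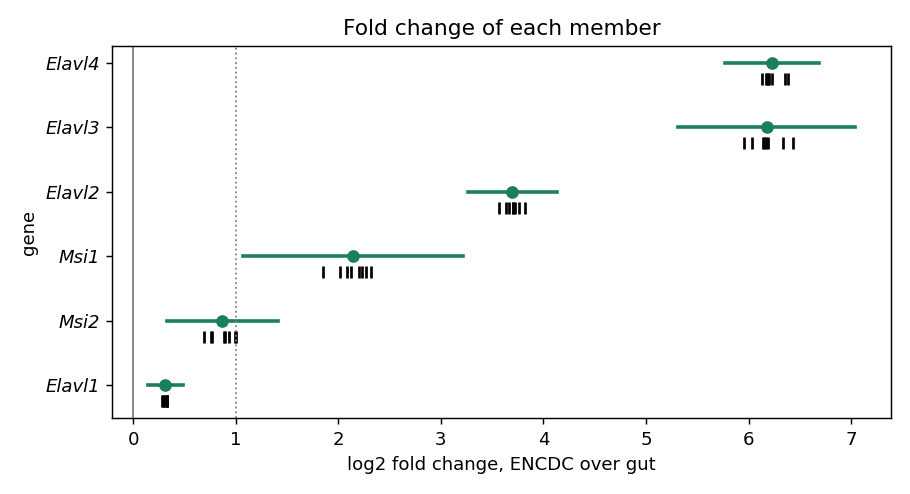
Log2 fold change of each gene, ENCDC over gut, from edgeR (points) with 95% intervals (bars), and the 8 values when each library is left out (black ticks below); the dotted line marks a 2-fold change. *Elavl4* (6.23) and *Elavl3* (6.18) lie far from the line, and the intervals of *Msi2* (0.33 to 1.41) and *Elavl1* (0.14 to 0.49) include it or lie below it.

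Whether the genes differed from each other in fold change was asked through the ratio of 2 genes within a library, which is free of library scaling. An exact 2-sided permutation test over the 8 libraries was run on the log2 ratio of counts (pseudocount 0.5) for each of 15 pairs. In 13 of the 15 pairs the ENCDC and gut ratios did not overlap, with an exact permutation p = 0.0286, the smallest these libraries allow (70 labelings), and 0.0330 after Benjamini-Hochberg adjustment over the 15 pairs. *Elavl4* over *Elavl1* averaged 0.05 ± 0.34 in ENCDCs and -5.86 ± 0.28 in gut cells (log2 ratio, SD, n = 4 per group), a difference of 5.92. *Elavl4* over *Elavl2* averaged 2.67 ± 0.33 in ENCDCs and 0.15 ± 0.32 in gut cells, so *Elavl2* differed less between the populations than *Elavl4*. *Msi1* over *Msi2* averaged -2.53 ± 0.60 in ENCDCs and -3.73 ± 0.38 in gut cells, a difference of 1.21. Without any one of the gut libraries 11 of the 15 pairs passed an exact permutation test on the absolute difference, and *Msi1* with *Msi2* and *Elavl2* with *Msi1* no longer did (adjusted p 0.0659 for both).

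The 2 pairs that did not pass were *Elavl4* with *Elavl3* and *Msi2* with *Elavl1*. The log2 ratio of *Elavl4* over *Elavl3* ran from 4.07 to 4.44 in ENCDC libraries and from 3.77 to 4.75 in gut libraries, a difference in means of 0.14 (exact permutation p = 0.571, adjusted 0.571, n = 4 each). The ratio thus lay in overlapping ranges although both genes differed about 75-fold. The log2 ratio of *Msi2* over *Elavl1* averaged -4.17 ± 0.34 in ENCDCs and -4.72 ± 0.42 in gut cells (exact permutation p = 0.143, adjusted 0.153, n = 4 each). A p above the threshold does not show that these pairs changed alike.

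Levels of different genes were compared as normalized counts per kb of annotated exon. In ENCDCs *Elavl4* was highest, at 1065 ± 195 per kb (SD, n = 4), followed by *Elavl1* at 526 ± 19.1, *Elavl2* at 107 ± 11.8, *Elavl3* at 42.6 ± 11.3, *Msi2* at 29.8 ± 7.69 and *Msi1* at 9.42 ± 3.57. Only *Elavl3* and *Msi2* overlapped their neighbour in this order. In gut cells *Elavl1* was highest, at 423 ± 29.9 per kb (SD, n = 4), followed by *Msi2* at 16.3 ± 3.81, *Elavl4* at 14.2 ± 3.33, *Elavl2* at 8.25 ± 1.84, *Msi1* at 2.12 ± 0.51 and *Elavl3* at 0.57 ± 0.24. Here only *Msi2* and *Elavl4* overlapped. The order in ENCDCs depends on the length used: per kb of coding sequence *Elavl1* (5577 ± 202) came before *Elavl4* (4968 ± 911), with overlapping libraries, and *Msi2* before *Elavl3*, while the gut order stayed as above.

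The makeup of the Elavl family differed between the populations. Per kb of exon, the neuronal genes *Elavl2*, *Elavl3* and *Elavl4* made up 72.0%, 72.5%, 62.2% and 70.9% of Elavl mRNA in ENCDC libraries 1 to 4, against 4.86%, 4.83%, 4.34% and 6.50% in gut libraries 1 to 4. ENCDC replicate 3 was the low library, and no ENCDC library came near a gut library. Per kb of coding sequence the share was 51.5% ± 5.29 in ENCDCs and 2.78% ± 0.52 in gut cells (mean ± SD, n = 4 per group). Within the neuronal genes, per kb of exon, *Elavl4* held 87.5% ± 1.83 in ENCDCs and 61.6% ± 5.34 in gut cells, and *Elavl2* held 9.04% ± 1.97 in ENCDCs and 36.0% ± 4.94 in gut cells (mean ± SD, n = 4 per group). Per kb of coding sequence *Elavl4* held 82.6% ± 2.49 in ENCDCs and 51.5% ± 5.56 in gut cells. On that scale *Elavl2* held 13.0% ± 2.70 in ENCDCs and 45.8% ± 5.17 in gut cells. In gut replicate 1 *Elavl2* (53.2%) then stood above *Elavl4* (43.8%). *Msi1* held 24.2% ± 7.60 of Musashi mRNA per kb of exon in ENCDCs and 11.7% ± 2.62 in gut cells (mean ± SD, n = 4 per group), so *Msi2* was the more abundant Musashi mRNA in both populations.

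**Figure D3:**
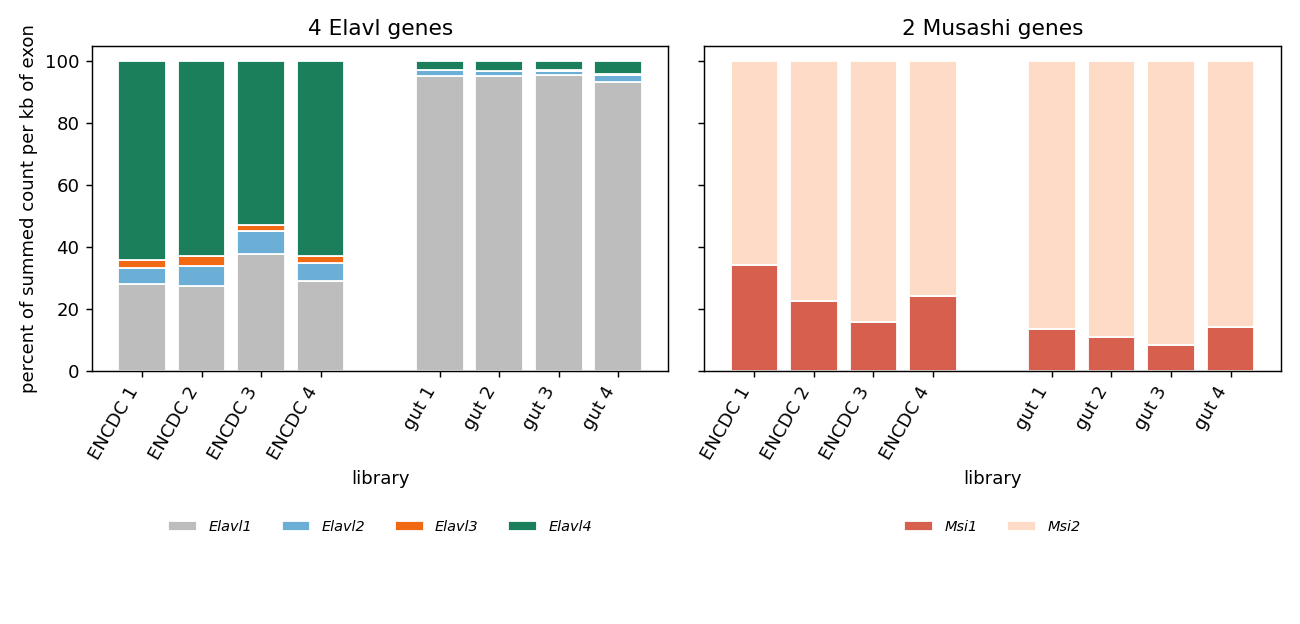
Share of each gene in the summed normalized count per kb of exon of the 4 Elavl genes (left) and the 2 Musashi genes (right), for each ENCDC and gut library. *Elavl4* takes most of the Elavl sum in ENCDC libraries, with the smallest share in ENCDC replicate 3, and *Elavl1* nearly all of it in gut libraries; *Msi1* is the smaller Musashi share throughout.

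The gut level of each gene was set beside that of crest and neuron markers, which were low but not absent in gut libraries, apart from *Tfap2b*. *Ret*, the receptor that crest cells need to colonize the bowel, had a mean normalized count of 12462 ± 2721 in ENCDC libraries and 132 ± 30.7 in gut libraries (SD, n = 4 per group), and *Sox10*, a transcription factor of crest progenitors and glia, of 5437 ± 321 in ENCDC and 72.5 ± 39.5 in gut libraries. As a share of the ENCDC mean, the gut level was 1.06% for *Ret* and 1.33% for *Sox10*, and the median over the 15 markers was 1.02% to 1.33% in the 4 gut libraries. *Elavl4* (1.33%) and *Elavl3* (1.34%) stood at the same height, whereas *Elavl2* (7.69%) stood near *Ednrb* (6.49%), the gene whose reporter was sorted on. *Msi1* (22.5%), *Msi2* (54.7%) and *Elavl1* (80.4%) were far above all 15 markers. How much of each gut value came from crest cells was not tested.

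**Figure D4:**
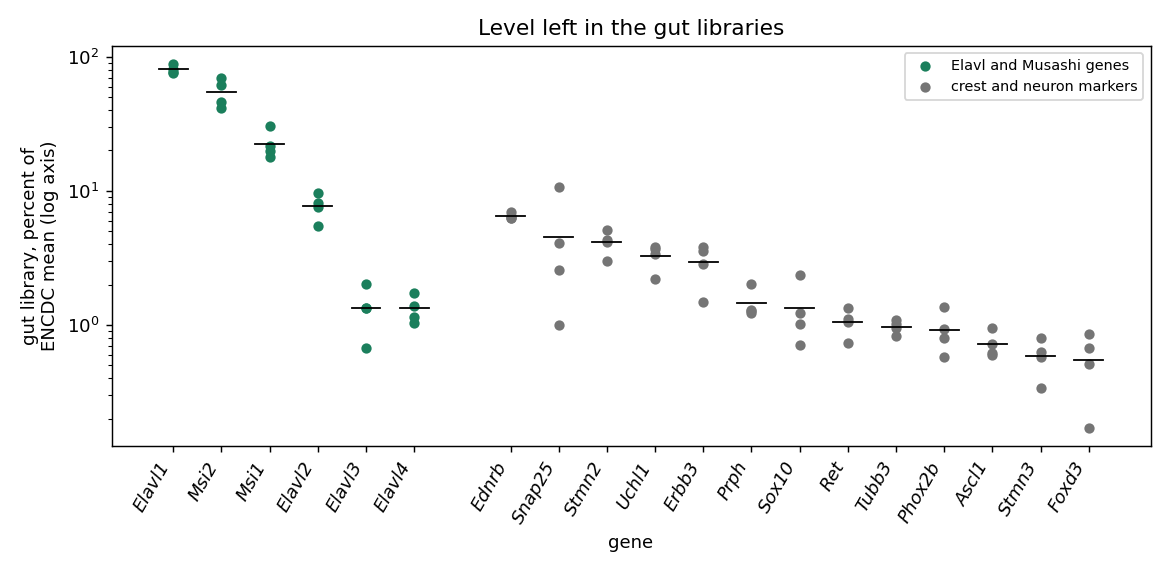
Level of the 6 genes and of 13 of the crest and neuron markers in each gut library, as a percent of the ENCDC mean (log axis; lines mark the means; *Tfap2b*, at 0 in every gut library, is left out). *Elavl3* and *Elavl4* lie among the markers at about 1.3%, *Elavl2* at 7.69% lies near *Ednrb* at 6.49%, and *Msi1*, *Msi2* and *Elavl1* lie above them all.

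Genes with profiles most like each of the 6 were found by the root mean square distance of log2 normalized counts over the 8 libraries, each profile centred on its own mean, among 12783 genes with a mean of at least 50 in either population. For *Elavl3* the nearest gene was *Elavl4* (distance 0.29), followed by *Miat*, a long non-coding RNA, and *Nrcam*, an axonal adhesion molecule. For *Elavl4* they were *Fam163a*, *Miat* and *Gpr17*, a G protein-coupled receptor gene (distances 0.22 to 0.23). For *Elavl2* they included *Rpl10a*, a ribosomal protein gene (distance 0.22), and *Rgs4*, a regulator of G protein signalling (distance 0.26). *Rpl10a* had a mean of 15332 normalized counts in ENCDC libraries, against 1185 in gut libraries.

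For *Elavl1* the nearest were *Eef1g*, a translation elongation factor subunit, *Trp53*, the p53 gene, and *Rrp1*, a ribosome biogenesis gene, at distances of 0.04 each. For *Msi1* they were *Slitrk6*, a neuronal transmembrane protein gene, *Plcb1*, a phospholipase C gene, and *Lzts1*, a leucine zipper gene (distances 0.24 to 0.31). For *Msi2* they were *9830144P21Rik*, *Fanca*, a DNA repair gene, and *Ikzf2*, a zinc finger transcription factor gene (distances 0.14 to 0.18). These distances are descriptions over 8 libraries of 2 populations, and most of each profile is the difference between the populations.

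Of 13 other tested proteins that bind AU-rich elements, 4 were called higher in ENCDCs and 2 lower by edgeR, against 17.0% and 20.9% of all genes, so the share called lower was not above that of all genes. The median log2 fold change was 0.21, against -0.04 over all genes, and without ENCDC replicate 3 the counts were 5 and 2. *Ybx1*, a cold shock domain protein gene, averaged 13451 ± 1254 in ENCDCs and 8588 ± 441 in gut cells, and *Hnrnpd* (AUF1) 6196 ± 765 in ENCDCs and 5124 ± 306 in gut cells (normalized counts, SD, n = 4 per group). *Hnrnpd* was called, but its libraries overlapped between the populations. The 2 genes called lower encode tristetraprolin-type proteins, known to promote decay of AU-rich mRNA. *Zfp36* fell by 2.02 on the log2 scale (89.5 ± 14.1 in ENCDCs and 362 ± 144 in gut cells, edgeR adjusted p 0.000268), and *Zfp36l1* fell by 1.07 (433 ± 57.8 in ENCDCs and 912 ± 102 in gut cells, edgeR adjusted p 0.000137). *Zfp36l2*, of the same family, was not called (log2 fold change -0.06, edgeR adjusted p 0.762).

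Of 7 hnRNP-type proteins with RNA recognition motifs like those of Musashi, 4 were called higher and 0 lower by edgeR, against 17.0% and 20.9% of all genes. Without ENCDC replicate 3 there were 5 higher, and with voom and limma 5, and none was called lower with either. The median log2 fold change was 0.42. The largest was *Hnrnpa1*, a splicing regulator, at 0.73 ± 0.09 (log2 fold change, SE), followed by *Hnrnpab* at 0.71 ± 0.07, *Hnrnpa0* at 0.43 ± 0.15 and *Hnrnpa2b1* at 0.42 ± 0.10.

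Of 26 tested regulators of translation and mRNA stability known from neural tissue, 11 were called higher and 0 lower by edgeR, against 17.0% and 20.9% of all genes. The median log2 fold change was 0.54. Without ENCDC replicate 3 there were 15 higher, and with voom and limma 12, and none was called lower with either. Among the most abundant called genes were *Caprin1*, a stress granule protein gene, at 16553 ± 798 in ENCDCs and 12202 ± 467 in gut cells, *Celf2* at 4088 ± 1183 in ENCDCs and 1850 ± 292 in gut cells, *Pabpc1*, the poly(A)-binding protein gene, at 3447 ± 109 in ENCDCs and 2812 ± 26.2 in gut cells, and *Igf2bp1* at 2326 ± 226 in ENCDCs and 1332 ± 137 in gut cells (normalized counts, SD, n = 4 per group). *Celf3*, a neuronal splicing factor gene of the same family as *Celf2*, was singled out after its values were seen: its log2 fold change of 5.54 ± 0.19 (SE) was the nearest in this list to those of *Elavl3* and *Elavl4*. *Celf6* (5.45 ± 0.75) and *Celf5* (5.05 ± 1.36, with overlapping libraries), singled out likewise, were also called higher. *Celf1*, of the same family, was not called (-0.03 ± 0.08).

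Of 19 transcripts described in the literature as bound by Hu proteins, 10 were called higher in ENCDCs and 5 lower by edgeR, against 17.0% and 20.9% of all genes. The median log2 fold change was 0.60, and without ENCDC replicate 3 the counts were 11 and 5. *Tubb3*, the neuronal tubulin gene, rose by 6.68 ± 0.13, *Gap43*, a growth cone protein gene, by 4.64 ± 0.15, *Marcks*, an actin-regulating membrane protein gene, by 0.65 ± 0.09 and *Ccnb1*, a mitotic cyclin gene, by 0.60 ± 0.11 (log2 fold change, SE). On the log2 scale *Slc2a1*, a glucose transporter gene, fell by 0.42, *Vegfa*, an endothelial growth factor gene, fell by 1.02 and *Fos*, an immediate early gene, fell by 1.75. *Fos* overlapped between the populations, with a mean of 258 ± 211 in ENCDC libraries and 864 ± 358 in gut libraries (normalized counts, SD, n = 4 per group).

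Of 11 tested transcripts described as bound by Musashi proteins, taken with Notch pathway readouts, 4 were called higher and 2 lower by edgeR, with a median log2 fold change of 0.25 and the same counts without ENCDC replicate 3. *Dcx*, which encodes a microtubule protein of young neurons, rose by 2.90 ± 0.31, *Notch1*, a Notch receptor gene, by 1.54 ± 0.23 and *Ptp4a1*, a phosphatase gene, by 0.49 ± 0.12 (log2 fold change, SE). *Smad3*, a TGF-beta signal transducer gene, fell by 0.71 and *Cdk6*, a cell cycle kinase gene, fell by 0.81 on the log2 scale. *Hes5*, *Hes1* and *Numb* were singled out after their values were seen. *Hes5*, a transcription factor gene that Notch signalling switches on, was called higher, at 83.2 ± 24.0 in ENCDCs and 0.49 ± 0.57 in gut cells, and its gut value rests on 2 counts (normalized counts, SD, n = 4 per group, edgeR adjusted p 2.4e-05). *Hes1*, another Notch target, was not called, at 702 ± 147 in ENCDCs and 770 ± 47.2 in gut cells (edgeR adjusted p 0.529). *Numb*, the Notch inhibitor that Musashi is best known for repressing, was not called either, at 791 ± 116 in ENCDCs and 664 ± 69.7 in gut cells (normalized counts, SD, n = 4 per group, edgeR adjusted p 0.185). These are mRNA levels, and translation of *Numb* was not measured. Binding was not measured in these samples, and all these lists were read against 17.0% of all genes called higher and 20.9% lower. Without ENCDC replicate 3 the share of all genes called higher was 19.0%.

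**Figure D5:**
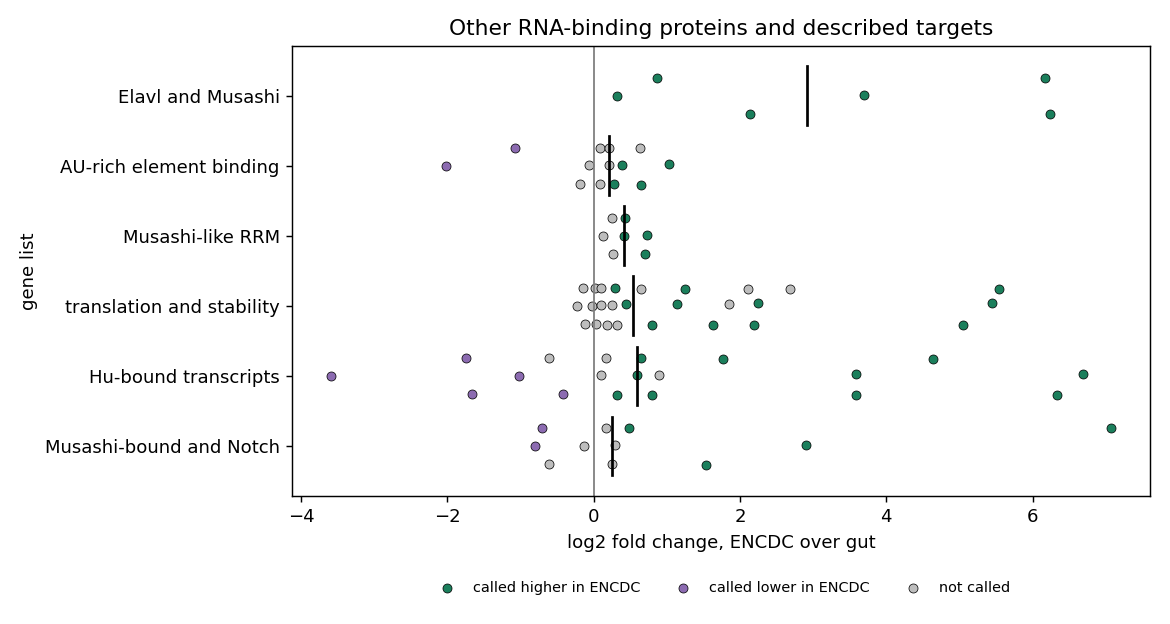
Log2 fold change, ENCDC over gut, of the genes tested on each list (points; vertical position within a list carries no value), coloured by the edgeR call, with the list median as a black line. All 6 Elavl and Musashi genes were called higher (median 2.92); the other lists have medians of 0.21 to 0.60, and those of AU-rich element binding proteins and of Hu-bound and Musashi-bound transcripts hold calls in both directions.

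The 3' UTRs of the 6 genes differed in AU-rich letters, a feature that the choice of genes did not use and that Elavl proteins are known to bind. ATTTA, searched on the transcript strand with overlaps counted, stood 17 times in the 4218 bases of *Elavl1*, 15 times in the 2477 bases of *Elavl2*, 8 times in the 3498 bases of *Elavl3* and 9 times in the 2610 bases of *Elavl4*. It stood 2 times in the 1895 bases of *Msi1* and 11 times in the 5310 bases of *Msi2*. At least 1 ATTTA was in 89.5% to 99.4% of other 3' UTRs of like length, with a median of 7 for *Elavl1* and 4 for *Elavl2*. At least as many as in *Elavl1* were in 4.51% of UTRs of its length and at least as many as in *Elavl2* in 1.27%, against 15.7% for *Elavl4*, 35.9% for *Elavl3*, 41.5% for *Msi2* and 73.4% for *Msi1*. A and T made up 68.0% of the *Elavl4* UTR and 66.6% of that of *Elavl2*, against a median of 57.6% in UTRs of like length for each. The share was 60.8% in *Msi2* (median 58.3%), 58.2% in *Elavl1* (median 58.0%), 49.6% in *Elavl3* (median 58.0%) and 45.5% in *Msi1* (median 56.8%). UTRs were matched on length and not on A and T, so the ATTTA counts were not set apart from A and T content.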

How the data were processed

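mRNA-seq libraries (SMARTer cDNA, NexteraXT, which keep no strand) were made from 4 ENCDC and 4 gut samples. The authors aligned reads to mm10 with STAR 2.4.2a and normalized them with PORT, and the deposited values are minimum normalized read counts per gene, whole numbers already brought to 1 depth (totals differ by 0.123%). The deposit's design text calls them CPM, but they add up to 13250893 or more in every library, so they were used as counts. The filter asked for a mean count of 3 or more and counts in 3 or more of the 4 samples of either population. Genes were tested with edgeR 4.0.16 (TMM, quasi-likelihood, Benjamini-Hochberg over all genes, threshold 0.05) in R 4.3.3. The SE of a log2 fold change was derived as its absolute value over the square root of its F statistic. The 95% intervals were built from this SE with a t quantile and are approximate. The alternatives used limma 3.58.1, DESeq2 1.42.0, RLE or no factors, other filters, a replicate block, a 2-fold threshold in the test, and leaving out each library. The script was tested on simulated data. The 6 genes, the lists and the naming rule were chosen with earlier results of these data known. From each list the text names up to 4 called genes with the highest count in the higher population and up to 3 called against the list's main direction, apart from a few that are not reported here. *Qki* and *Robo3* were left out (no row, and too few counts). 3' UTRs came from GENCODE M21 and miRNAs from RefSeq, in Python 3.11.15 with pandas 2.3.3. smRNA-seq was not analysed here, nor were proteins.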

Additional observations from a re-analysis of the deposited data

Results flagged for a closer look

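*Elavl4* in ENCDC replicate 3 stood apart from the other ENCDC libraries, at 4165 normalized counts against 6151 to 6367, and without that library its log2 fold change was 6.36, against 6.23 with all libraries. The share of *Elavl2*, *Elavl3* and *Elavl4* in Elavl mRNA per kb of exon stood apart in the same library, at 62.2% against 70.9% to 72.5%. These were 2 of 26 groups of 4 libraries looked at for a sample far from the others, and chance gives about 1 in 20 for independent groups. The 2 are not independent, since *Elavl4* made up 85.2% of the summed *Elavl2*, *Elavl3* and *Elavl4* in that library. The same library had the highest sum of markers of other bowel cells (25778, against 5143 to 9856 in the other ENCDC libraries), and the part of those markers in these values was not tested.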

How the results depend on the processing

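All 6 genes kept their direction under all 16 alternatives of the test (DESeq2, voom with limma, RLE or no scaling factors, both other filters, a replicate block, a test against a 2-fold change, and each of the 8 libraries left out). The calls of *Elavl2*, *Elavl3*, *Elavl4* and *Msi1* held under every one. Against a 2-fold change *Elavl1* (log2 fold change 0.31) and *Msi2* (0.87) were no longer called (edgeR adjusted p 1.00 for both), and 983 genes were called higher and 2031 lower over all genes, against 3212 and 3946 in the test against no change. With each library left out, the log2 fold change of *Msi2* was 0.69 to 1.00, with edgeR adjusted p from 0.0106 to 0.0596, and the call was lost without gut replicate 2. Genes called over all genes then numbered 2670 to 3535 higher and 3311 to 4243 lower. The replicate block changed no call of the 6 genes and gave 2609 genes higher and 3324 lower. Same-numbered ENCDC and gut libraries did not deviate together (correlation of deviations across genes -0.017 to 0.015). This does not show whether they came from the same bowels. With a pseudocount of 1, 13 of 15 pairs passed as before. With each library left out, a test chosen after seeing the data (exact permutation of the absolute difference, 35 labelings), 11 to 13 pairs passed. A minimum mean of 200 kept 1 of the 3 genes nearest to *Msi2* and all 3 for each other gene. Depth limits *Elavl3* and *Msi1* in gut libraries most, with 16 and 50 counts in all.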
